A study of Mus musculus with 32 samples.

Results

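Mouse-host experiment 3 is a set of 4 RNA-seq libraries of parathyroid gland (PTG) cells that had grown from mouse embryonic stem cells (ESC) inside Gcm2-/- mice. The 4 libraries were chosen by their titles, out of 16 libraries of such mouse-host cells and 32 libraries in the series, and were set against the 12 libraries of mouse-host experiments 1, 2 and 4, with 4 libraries in each. In all 16 libraries the host was Gcm2-/- on a BDF1B6 background, was complemented with Pth-tdTomato mouse ESCs and was 9 weeks old. The sex label is female for experiments 3, 1 and 2 and male for experiment 4. Each library was made from 10 to 20 cells that showed the red tdTomato reporter and were picked by hand, so each value describes a small pool and not single cells. Replicates are called biological in the titles. The labels give neither the animals that the replicates of an experiment came from, nor the day of picking, nor which of host and donor the sex label is for. The question that the experiment numbers pose is how far 1 repeat of the same complementation differed from the other repeats.

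Blastocyst complementation places stem cells in an early embryo that cannot form a given organ, and the donor cells then fill the empty niche. Gcm2 encodes a zinc-containing transcription factor of the glial cells missing family. It is needed in mice for the parathyroid to form and is kept on in adult parathyroid cells, where it is a lineage marker. Which bases of Gcm2 the hosts lack is not in the labels, so Gcm2 reads were not split between donor and host cells. The gland releases parathyroid hormone (Pth) when the calcium-sensing receptor (Casr) reports low blood calcium, and chromogranin A (Chga) is a main protein of its secretory granules.

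Depth was 12092878 to 15098391 reads per library in experiment 3, against 9470744 to 13094120 in experiments 1, 2 and 4, and 12511 to 12741 genes had at least 1 read in experiment 3, against 11606 to 13113. The parathyroid identity named in the labels could be read in every experiment 3 library. Pth had 106260.0, 94375, 88244 and 95083 CPM (read counts scaled to a common library size) in experiment 3, and 71456 to 136900.0 CPM in experiments 1, 2 and 4. Markers of other cell types differed by list in experiment 3. Summed over each marker list, the 4 libraries held at most 1.61 CPM for 9 endothelial genes, 6.84 CPM for 8 macrophage genes and 15.8 CPM for 8 fibroblast genes, and 0 CPM for 8 thyroid follicular and 6 adipocyte genes. Other lists were higher, at up to 129.7 CPM for MHC class II genes, 105 CPM for skeletal muscle genes and 32.7 CPM for thyroid C cell genes, against highest sums of 251, 69.2 and 69.4 CPM in experiments 1, 2 and 4. In experiments 1, 2 and 4 the fibroblast sum lay between 0 and 2430.3 CPM, with the highest value in replicate 4 of experiment 2. Without that library 8 genes were called higher and 5 lower in the comparison below, in place of 10 and 6. The Y-linked genes Ddx3y and Eif2s3y had at most 0.0883 CPM in any of the 16 libraries, those labelled male included, while Ddx3y had 39.5, 25.0, 23.05 and 67.6 CPM in the control libraries labelled male. Kdm5d, a further Y-linked gene, had 0.889 to 5.40 CPM in experiment 3 and 0.542 to 6.06 CPM in experiments 1, 2 and 4, against 10.8, 15.6, 9.10 and 30.1 CPM in the controls labelled male and 3.53, 1.69, 0.491 and 2.60 CPM in those labelled female.

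Gcm2 was higher in experiment 3 than in any other experiment. Its levels in the 4 libraries of experiment 3 were 1478, 1297, 1150.0 and 1445 CPM. Experiment 1 had 571, 742, 582 and 814 CPM, experiment 2 had 1143, 954, 989.6 and 943 CPM and experiment 4 had 669, 869, 966 and 820.4 CPM. The lowest experiment 3 library thus stood just above the highest of the 12 others, which was replicate 1 of experiment 2. As means, Gcm2 was at 1342 ± 150.4 CPM in experiment 3, 677 ± 120.3 in experiment 1, 1007 ± 92.6 in experiment 2 and 831 ± 124 CPM in experiment 4 (SD, n = 4 libraries each). The fitted log2 fold change of experiment 3 over the mean of experiments 1, 2 and 4 was 0.70 (SE 0.11), and it was 1.00 over experiment 1, 0.42 over experiment 2 and 0.69 over experiment 4. No test is given for Gcm2, because the comparison was set up with its level known.

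The other arms of the series lay lower. Grafted cells, which were mouse-host ESC-derived PTG cells of the same host strain at 12 weeks and labelled male, had 504, 615, 515 and 604 CPM. Cells from a neonatal Gcm2-/- Wistar rat host of unknown sex had 781, 636, 755 and 659 CPM. Control cells from C57BL/6-Pthtm1(P2A-tdTomato)/+ mice had 495, 609.9, 653 and 699 CPM in control experiment 1 (male, 8 weeks) and 762, 879, 593 and 570.3 CPM in control experiment 2 (female, 11 weeks). In falling order of the means, experiment 3 was followed by experiment 2 and experiment 4, whose libraries overlap each other. After these came the rat host at 708 ± 71.1 CPM, control experiment 2 at 701 ± 146 CPM, experiment 1, control experiment 1 at 614 ± 87.5 CPM and the graft at 559 ± 57.9 CPM (SD, n = 4 each), and each of these neighbours overlaps the next. In a pool of cells, fewer cells of a type and less RNA per cell cannot be told apart, which holds for each level given here.

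**Figure D1:**
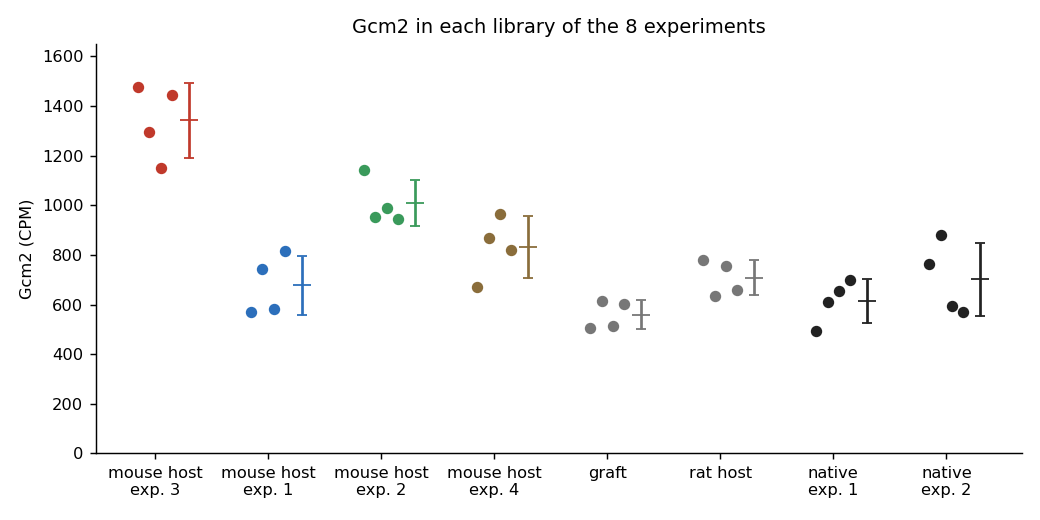
Gcm2 in each library, in CPM on a linear axis, with experiment 3 at the left, the other mouse-host experiments next to it, and the graft, the rat host and the native control cells at the right. Points are libraries and bars are the mean ± SD of 4 libraries; the 4 experiment 3 points lie at 1150.0 to 1478 CPM, above the 12 other mouse-host points.

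On the authors' TPM scale, experiments 3 and 2 were closer. That scale corrects for transcript length and, unlike the CPM here, was not TMM-scaled. Which of these brought the experiments closer was not tested. Gcm2 had 513, 528, 497 and 617 TPM in experiment 3, against 226, 295, 251 and 347 TPM in experiment 1, 509, 423, 389 and 385 TPM in experiment 2 and 233, 387, 444 and 343 TPM in experiment 4. The lowest experiment 3 library was below the highest library of experiment 2 on this scale, so these experiments overlap, and experiment 3 stayed above experiments 1 and 4. The main protein-coding transcript, Gcm2-201, took 87.4% to 92.1% of Gcm2 reads in experiment 3, against 80.4% to 94.3% in experiment 1, 89.6% to 92.0% in experiment 2 and 84.4% to 90.5% in experiment 4.

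The number of genes that differed between experiment 3 and the other experiments depended on the test. Of 12195 genes tested with edgeR's quasi-likelihood test and Benjamini-Hochberg adjustment, 16 passed an adjusted p of 0.05 (0.131%), 10 of them higher (0.082%) and 6 lower (0.0492%) in experiment 3. At an unadjusted p below 0.05 there were 851 genes (6.98%), 480 higher (3.94%) and 371 lower (3.04%). DESeq2 on the same comparison called 66 higher and 93 lower, with the larger share lower. The median log2 fold change over all genes was 0.04. Gcm2 stands among the 10, but since the comparison was set up with its level known, it is described and not counted as a finding. Against their own rest, experiment 1 had 340 such genes (2.79%), experiment 2 had 11 (0.0902%) and experiment 4 had 13 (0.107%). These counts share libraries and are set side by side without a test.

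None of the 16 genes was called against each of the other experiments by edgeR. Against experiment 1 alone, 149 genes passed (1.22%), 89 higher (0.73%) and 60 lower (0.492%) in experiment 3, and 13 of the 16 were among them. Against experiment 2 alone, 15 genes passed (0.123%), 9 higher (0.0738%) and 6 lower (0.0492%), and 8 of the 16 were among them. There, 6.42% of genes had an unadjusted p below 0.05. Against experiment 4 alone, no gene passed (0%). There, 582 genes (4.77%) had an unadjusted p below 0.05 and the lowest edgeR adjusted p was 0.295. No gene was called in all 3 single contrasts by edgeR, while DESeq2 called 18. Of these, 1 was higher (P2rx6) and 17 lower, among them Spp1, Noct and Rtl6. Most of the 17 had extreme fitted values, such as -26.9 for Gm28661 and -24.0 for Gbp3 against experiment 1. Gbp3 had 0 CPM in experiment 3 and averaged 8.34, 4.52 and 3.78 CPM in experiments 1, 2 and 4, so its fitted value is not a bound. For 15 of the 16 genes, experiment 3 lay on the same side of all 3 other experiments, the exception being Dsc1. With experiment 1 left out of the fit, 4 genes were called higher and 0 lower, and P2rx6 alone of the 16 was among them (log2 fold change 1.21, edgeR adjusted p = 0.0280). Single libraries also move the counts. Without replicate 2 of experiment 3 there were 6 higher and 3 lower genes, without its replicate 3 there were 5 and 3, and without its replicate 4, or replicate 3 or 4 of experiment 4, there were 6 higher. Without replicate 1 of experiment 1 there were 10 lower. Libraries are the replicates of this test. With counts summed per experiment, so that experiment 3 is 1 value against 3, no gene was called by edgeR and 342 had an unadjusted p below 0.05. Differences between experiments in animal, picking or sequencing cannot be told apart from the experiment number. The genes below were named after their values were seen, since the rule for naming genes asked for a call in all 3 contrasts.

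**Figure D2:**
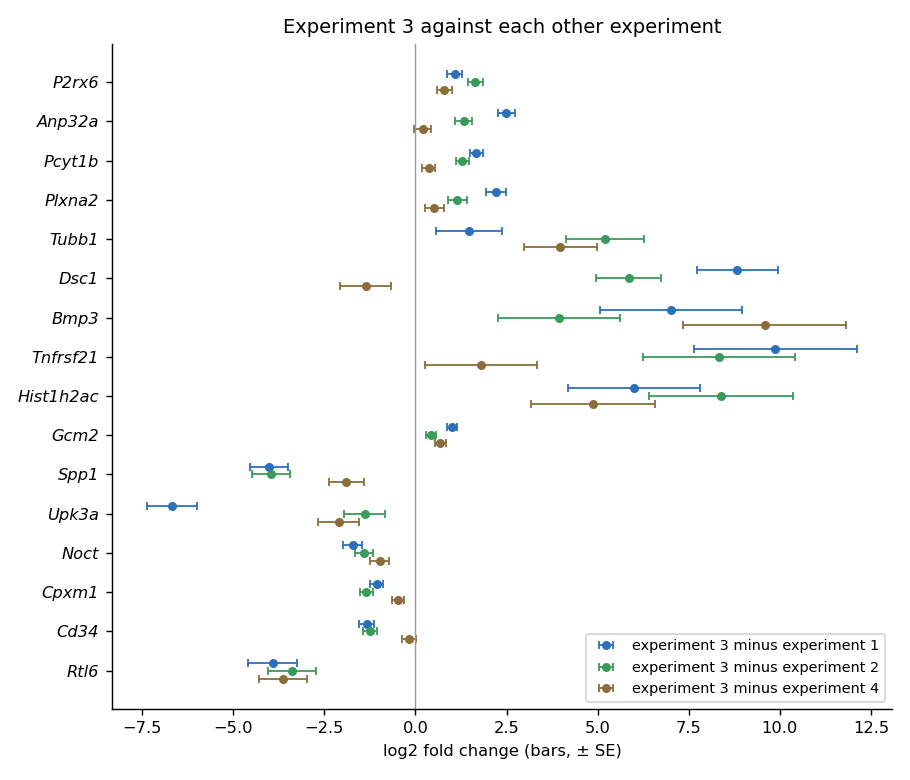
Log2 fold change of experiment 3 over experiment 1, experiment 2 and experiment 4 for the 16 called genes, drawn as points with bars of ± SE from 1 fit over 16 libraries. Brown points, against experiment 4, lie nearest 0 for most genes, and that of Dsc1 lies at -1.37; the fitted values of Bmp3, Tnfrsf21 and Hist1h2ac rest on near-empty libraries and are not bounds.

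P2rx6, a subunit of the ATP-gated P2X family of ion channels, was the gene whose call held under most settings. It had 579.5, 535, 697 and 766 CPM in experiment 3, against a lowest value of 159, a median of 330.1 and a highest value of 433 CPM over the 12 libraries of experiments 1, 2 and 4. Every experiment 3 library was above every other mouse-host library. Its log2 fold change was 1.17 (SE 0.16, edgeR adjusted p = 0.00209), with 1.08 against experiment 1, 1.65 against experiment 2 and 0.79 against experiment 4. The 8 control libraries lay between 182 and 319.6 CPM and the 4 rat-host libraries lower still, while the graft had 446, 157, 606 and 513 CPM, so that replicate 3 of the graft was above replicates 1 and 2 of experiment 3.

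Spp1, which encodes the secreted matrix phosphoprotein osteopontin, was lower in experiment 3 and was the called gene with the highest level in experiments 1, 2 and 4. It had 74.9, 299, 312 and 50.5 CPM in experiment 3, against a lowest value of 449.5, a median of 2226 and a highest value of 4816 CPM in experiments 1, 2 and 4. All 4 libraries of experiment 3 were below the lowest other library, and 2 of them were several times lower still. The means were 184 ± 141 CPM in experiment 3, 3010.1 ± 564 CPM in experiment 1, 2919 ± 1367 CPM in experiment 2 and 689 ± 245 CPM in experiment 4 (SD, n = 4 each), so experiment 4 was itself below experiments 1 and 2. Its log2 fold change over the mean of the 3 other experiments was -3.30 (SE 0.47, edgeR adjusted p = 0.00397). Control libraries held 2281 to 6576 CPM and graft libraries 3975, 3328, 3004 and 8669.7 CPM. The rat host had 234, 1347, 1283 and 1345 CPM, and its replicate 1 lay within the range of experiment 3.

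The windows of 250 bases before the start of Gcm2, P2rx6 and Spp1 are printed because these are the gene that sets the comparison and the higher and lower genes whose calls held most often. They are from RefSeq, build GRCm38.p6, on the strand of the gene. Gcm2 is at chr13:41109989-41110238 on the minus strand, P2rx6 at chr16:17561635-17561884 and Spp1 at chr5:104434861-104435110 on the plus strand. Capitals mark CCAAT on either strand, a box that many promoters carry.
Gcm2: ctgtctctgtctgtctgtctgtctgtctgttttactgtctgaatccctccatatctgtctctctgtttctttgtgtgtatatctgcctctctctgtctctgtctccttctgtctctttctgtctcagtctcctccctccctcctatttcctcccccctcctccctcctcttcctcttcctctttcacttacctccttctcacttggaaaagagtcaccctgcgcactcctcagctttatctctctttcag
P2rx6: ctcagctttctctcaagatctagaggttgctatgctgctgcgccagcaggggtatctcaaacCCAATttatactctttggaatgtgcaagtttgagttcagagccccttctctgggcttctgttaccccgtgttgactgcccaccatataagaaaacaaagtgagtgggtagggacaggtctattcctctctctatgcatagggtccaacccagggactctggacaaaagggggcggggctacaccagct
Spp1: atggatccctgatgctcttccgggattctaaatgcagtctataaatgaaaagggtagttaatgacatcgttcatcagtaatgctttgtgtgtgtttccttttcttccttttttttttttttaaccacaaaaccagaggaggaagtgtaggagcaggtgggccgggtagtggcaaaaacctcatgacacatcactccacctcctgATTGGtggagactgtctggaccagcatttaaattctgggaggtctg
The Gcm2 window holds no CCAAT on either strand. P2rx6 has it 188 bases and Spp1, on the other strand, 46 bases before the start. Over all 32851 such windows in the table, 33.8% hold CCAAT. The letters ATGCGGG, the core bound by the glial cells missing family, occur on either strand in 1.19% of all windows. They occur in none of the 28 windows found for 26 of the 31 genes that were called or were most like Gcm2.

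Genes higher in experiment 3 and well expressed in every experiment were Anp32a, Pcyt1b and Plxna2. Anp32a, which encodes an acidic nuclear phosphoprotein that binds histones, had 274, 244, 183 and 277 CPM in experiment 3, against a lowest value of 36.0, a median of 96.3 and a highest value of 287 CPM in experiments 1, 2 and 4 (log2 fold change 1.34, SE 0.17, edgeR adjusted p = 0.00209). Both groups overlap, because experiment 4 averaged 213 ± 58.1 CPM, beside 244 ± 43.6 CPM in experiment 3 (SD, n = 4). Pcyt1b, an enzyme of phosphatidylcholine synthesis, had 500.3, 349.9, 381 and 423 CPM in experiment 3, against a lowest value of 111, a median of 166 and a highest value of 366 CPM in experiments 1, 2 and 4 (log2 fold change 1.11, SE 0.14, edgeR adjusted p = 0.00209). Replicate 1 of experiment 4 lay above replicate 2 of experiment 3, and no other pair overlapped. Plxna2, a receptor for semaphorins, had 166, 182, 174 and 112 CPM in experiment 3, against a lowest value of 25.3, a median of 65.9 and a highest value of 147 CPM in experiments 1, 2 and 4 (log2 fold change 1.29, SE 0.20, edgeR adjusted p = 0.00745). Only the lowest experiment 3 library, replicate 4, lay within the range of the others.

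Another group of higher genes was near 0 in some experiments. Tubb1, a beta-tubulin known from platelets, had 280.3, 233, 240.0 and 127 CPM in experiment 3, against 43.4, 43.8, 175 and 63.0 CPM in experiment 1, 4.74, 0, 0.0765 and 19.8 CPM in experiment 2 and 13.9, 5.64, 11.3 and 25.1 CPM in experiment 4. Replicate 3 of experiment 1 exceeded the lowest of experiment 3 (edgeR adjusted p = 0.0427). Dsc1, the desmosomal cadherin desmocollin 1, had 47.0, 89.3, 123 and 101 CPM in experiment 3 and 121, 207, 409 and 186 CPM in experiment 4. It had at most 0.325 CPM in any library of experiment 1 and 5.87 CPM in any of experiment 2, so experiments 3 and 4 together stood above experiments 1 and 2 (edgeR adjusted p = 0.00209 for experiment 3 against the mean of the others).

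Bmp3, a member of the bone morphogenetic protein family that opposes other members, had 46.0, 19.2, 18.5 and 20.4 CPM in experiment 3, against at most 6.65 CPM in the 12 other libraries, 7 of which had no read (edgeR adjusted p = 0.0282). The other 2 genes of this kind had few reads. Tnfrsf21, which encodes death receptor 6, had 5.08, 7.31, 14.0 and 13.7 CPM in experiment 3 and up to 6.09 CPM in experiment 4, and no read in experiment 1 (edgeR adjusted p = 0.0496). Hist1h2ac, a histone H2A gene with near-identical copies between which reads can be split, had 2.05, 3.69, 4.03 and 4.44 CPM in experiment 3 and at most 0.274 CPM elsewhere in the mouse hosts (edgeR adjusted p = 0.0435). Bmp3 and Hist1h2ac passed the filter on low counts only through experiment 3. Their direction was thus favoured by that filter, and their p-values are no support for a difference. Of 31 other settings of the test, the call of Tubb1 was kept in 13 and that of Bmp3 in 17. Those of Tnfrsf21 and Hist1h2ac were each kept in 7 of 30.

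**Figure D3:**
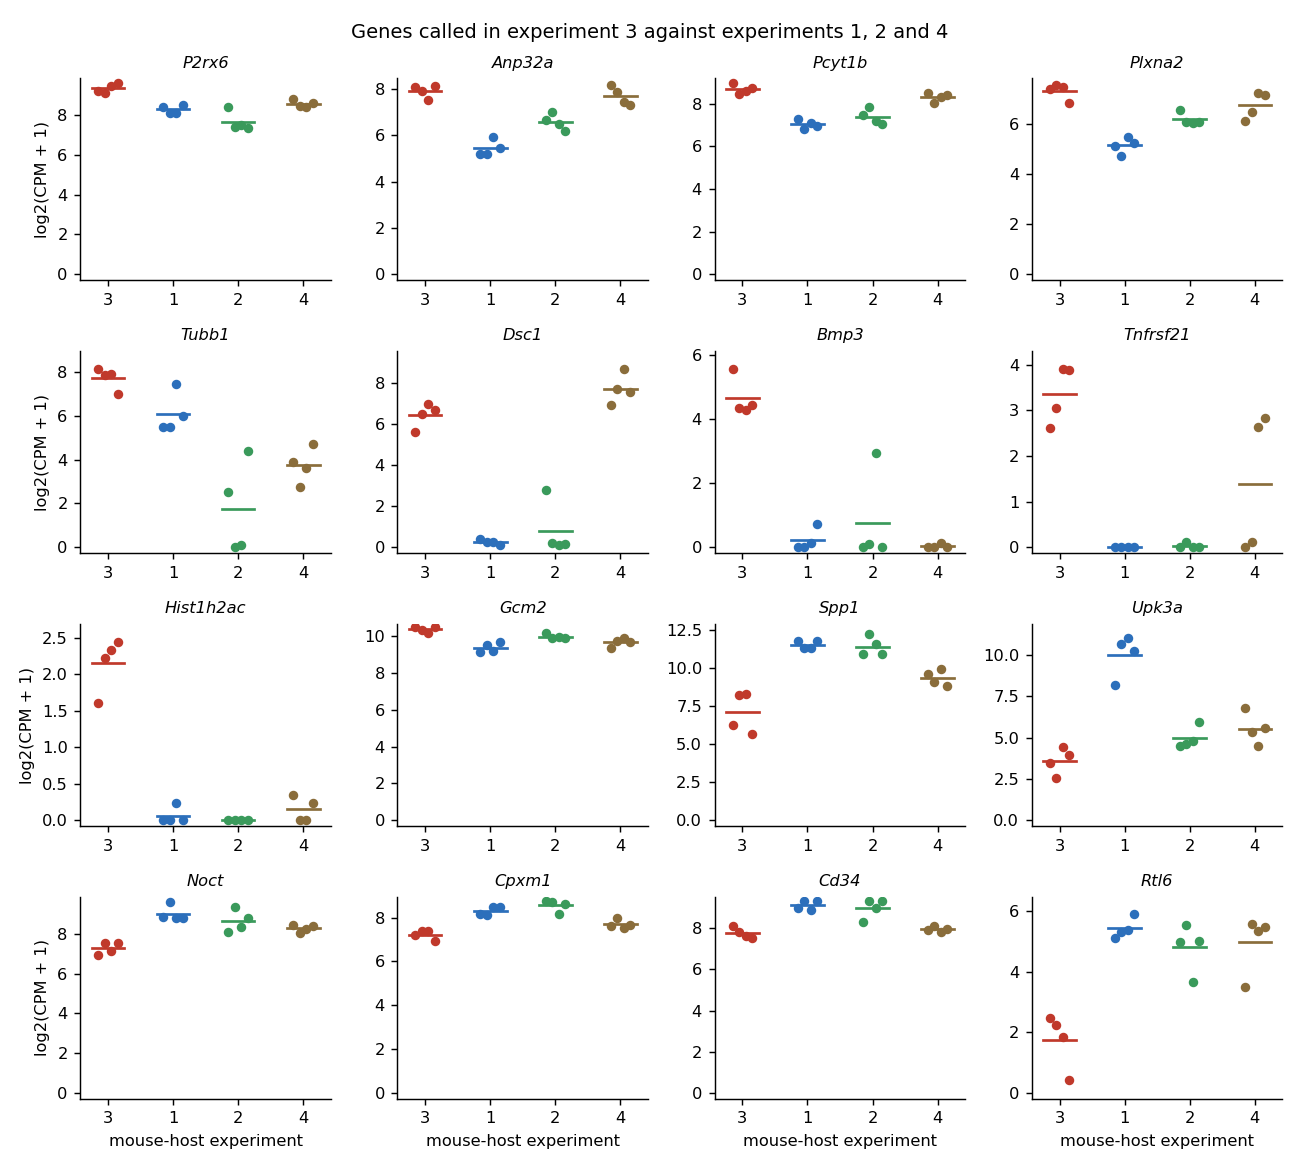
Levels of the 16 called genes in each library as log2(CPM + 1), with experiment 3 at the left of every panel and experiments 1, 2 and 4 beside it; points are libraries and lines are means of 4. Experiment 3 is set apart from all 12 other libraries for 9 of the 16 genes, and shares its level with experiment 4 for Anp32a and Cd34. Among the 9, Bmp3 and Hist1h2ac passed the filter on low counts only through experiment 3.

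Of the other genes lower in experiment 3, Noct encodes nocturnin, an enzyme with a daily rhythm in many tissues. Noct had 120.3, 184, 139.9 and 187 CPM in experiment 3, against a lowest value of 260.0, a median of 391 and a highest value of 769.8 CPM in experiments 1, 2 and 4 (log2 fold change -1.37, SE 0.22, edgeR adjusted p = 0.0114). Experiment 3 did not overlap the rest, and the 8 control libraries, at 66.8 to 275 CPM, reached down to the level of experiment 3 and below it. Cpxm1, a carboxypeptidase-like secreted protein, had 144, 167, 167 and 121 CPM in experiment 3, against a lowest value of 185, a median of 287 and a highest value of 432 CPM in experiments 1, 2 and 4 (log2 fold change -0.96, SE 0.14, edgeR adjusted p = 0.00659), also with no overlap. Cd34, a surface sialomucin best known from blood stem cells and endothelium, had 278, 222, 195 and 186 CPM in experiment 3, against a lowest value of 222, a median of 491 and a highest value of 648 CPM in experiments 1, 2 and 4 (log2 fold change -0.92, SE 0.17, edgeR adjusted p = 0.0427). Its mean of 220.5 ± 41.5 CPM in experiment 3 was near the 248 ± 22.2 CPM of experiment 4, while experiments 1 and 2 had 565 ± 86.4 and 525 ± 155 CPM (SD, n = 4 each). The call of Cd34 was kept in 14 of 31 other settings.

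Upk3a, a uroplakin of the bladder lining, had 10.2, 4.77, 20.2 and 14.5 CPM in experiment 3. Experiment 1 had 294, 1608, 2078 and 1194 CPM, experiment 2 had 21.2, 23.4, 27.1 and 60.0 CPM and experiment 4 had 109, 39.8, 21.2 and 46.3 CPM. All experiment 3 libraries were below all others, with a small margin to the lowest of experiments 2 and 4, and the fitted log2 fold change of -3.39 (SE 0.55, edgeR adjusted p = 0.0114) was -6.68 against experiment 1, -1.39 against experiment 2 and -2.11 against experiment 4. Rtl6, a gene derived from a retrotransposon, had 4.59, 3.77, 2.58 and 0.342 CPM in experiment 3, against a lowest value of 10.3, a median of 38.8 and a highest value of 59.5 CPM in experiments 1, 2 and 4 (log2 fold change -3.65, SE 0.62, edgeR adjusted p = 0.0169). Its 3 single contrasts were alike, at -3.92 against experiment 1, -3.39 against experiment 2 and -3.64 against experiment 4. In all, 31 genes (0.254%) had no overlap between experiment 3 and the 12 other libraries, 17 above (0.139%) and 14 below (0.115%), and 9 of them were among the 16 called. Bmp3 and Hist1h2ac are among the 9, and their lack of overlap was favoured by the filter on low counts.

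Against experiment 2 alone, 7 further genes were called, which are named after their values were seen. Clu, which encodes the secreted chaperone clusterin, had 1949, 2099, 1989 and 2587 CPM in experiment 3, against 968, 1007, 813 and 886 CPM in experiment 2 (log2 fold change 1.24, SE 0.17, edgeR adjusted p = 0.00243). Aqp5, a water channel of secretory epithelia, averaged 249 ± 63.4 CPM in experiment 3 and 51.2 ± 13.3 CPM in experiment 2 (SD, n = 4 each; edgeR adjusted p = 0.00279). F3, the tissue factor that starts clotting, was also higher at 166 ± 25.6 CPM in experiment 3 and 46.6 ± 18.8 CPM in experiment 2 (edgeR adjusted p = 0.0213), as was the metalloprotease gene Adam33 at 94.4 ± 34.8 CPM in experiment 3 and 19.0 ± 9.41 CPM in experiment 2 (edgeR adjusted p = 0.0363), and Zcchc18 (log2 fold change 1.54, edgeR adjusted p = 0.0213). Timp2, an inhibitor of matrix metalloproteases, was lower, with 24.7, 58.5, 60.2 and 44.1 CPM in experiment 3, against 157, 153, 125 and 146 CPM in experiment 2 (edgeR adjusted p = 0.0213), and so was Ptov1 (log2 fold change -2.11, edgeR adjusted p = 0.0363). Timp2 and Ptov1 were called against experiment 1 as well, and experiment 4 had 56.6 ± 18.6 CPM of Timp2 and 16.1 ± 2.60 CPM of Ptov1, near the 46.9 ± 16.4 and 13.7 ± 2.94 CPM of experiment 3. F3 in experiment 4 had 297 CPM in replicate 2 and 150.0 to 164 CPM in the other replicates, so it was not lower there as in experiment 2. None of these 7 genes was called against experiment 4.

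Among the 149 genes called against experiment 1, several had levels in experiments 2 and 4 near those of experiment 3. These too were named after their values were seen. Myh10, nonmuscle myosin heavy chain IIB, had 998, 1004, 843 and 1139 CPM in experiment 3, against 217, 282, 248 and 314 CPM in experiment 1 (log2 fold change 1.92, SE 0.24, edgeR adjusted p = 0.000506), and averaged 924 CPM in experiment 2 and 834 CPM in experiment 4. Golgb1, the Golgi tether giantin, and Nedd4, a ubiquitin ligase, were likewise higher in experiment 3, at 121 and 267 CPM, than in experiment 1, at 36.0 and 85.7 CPM (edgeR adjusted p = 0.00254 for each gene). Experiments 2 and 4 averaged 103 and 99.5 CPM of Golgb1 and 249.6 and 260.2 CPM of Nedd4. Ctsz, the lysosomal protease cathepsin Z, was lower, with 830.1, 1200.1, 1000.5 and 1081 CPM in experiment 3 and 1553, 2311, 1846 and 2121 CPM in experiment 1 (edgeR adjusted p = 0.00254). Spc24, a part of the kinetochore, had 430.4, 480.0, 326 and 369.6 CPM in experiment 3, against 111, 65.7, 94.1 and 45.2 CPM in experiment 1 (edgeR adjusted p = 0.000132). It averaged 264 CPM in experiment 2 and 618 CPM in experiment 4, so experiment 3 stood between these.

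Among 16 regulators of parathyroid development, 12 were tested and none other than Gcm2, with which the comparison was set up, passed, beside 0.131% of all genes. Counting Gcm2, 7 of 12 fold changes were above 0, with a median of 0.04. Pax9, a pharyngeal pouch transcription factor needed for the glands of that region, had 317, 298, 206 and 282 CPM in experiment 3, against a lowest value of 83.3, a median of 179.5 and a highest value of 261 CPM in experiments 1, 2 and 4 (log2 fold change 0.76, SE 0.15, edgeR adjusted p = 0.0673). It passed only against experiment 1 (edgeR adjusted p = 0.00216). Its paralog Pax1, also of the pouches, averaged 9.62 ± 4.10 CPM in experiment 3 and 29.3 ± 14.6, 30.3 ± 9.50 and 24.8 ± 11.0 CPM in experiments 1, 2 and 4 (edgeR adjusted p = 0.298), so the values of the pair ran in opposite directions without either passing. Hoxa3, which patterns the same pouch, was low, with 0.246 to 7.25 CPM in experiment 3 and 0 to 2.86 CPM in experiments 1, 2 and 4. Gata3, which acts with Gcm2 on the Pth gene, had a log2 fold change of 0.08 (SE 0.12). Tbx1, a regulator of the pharyngeal region, had 6.96, 52.7, 85.5 and 14.3 CPM in experiment 3, against 8.68 to 92.5 CPM in experiments 1, 2 and 4, so its range in experiment 3 covered nearly that of the rest.

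Of 26 parathyroid function genes, 17 were tested and none was called, beside 0.131% of all genes, so the list is too short to tell its share from that. The list had 9 fold changes above 0 and a median of 0.01. Pth had a log2 fold change of 0.16 (SE 0.11), Chga of 0.05 (SE 0.06) and Casr of 0.31 (SE 0.19). The vitamin D receptor gene Vdr was at -0.09 (SE 0.13) and Kl, which encodes the FGF23 co-receptor klotho, at 0.07 (SE 0.17). The member with the smallest p was Scg5, a granule chaperone of prohormone convertase 2. Scg5 had 38.4, 56.9, 35.2 and 33.4 CPM in experiment 3, against a lowest value of 48.7, a median of 82.1 and a highest value of 121 CPM in experiments 1, 2 and 4 (log2 fold change -1.03, SE 0.24, edgeR adjusted p = 0.155). Its 3 single contrasts were close, at -0.88 against experiment 1, -1.09 against experiment 2 and -1.13 against experiment 4. DESeq2 called it in each of them, and edgeR in none.

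Genes of the cell cycle had the highest positive median of the lists, without a call. All 22 tested of 25 listed had a fold change above 0, against 53.6% of all genes, and their median log2 fold change was 3.50. The contrast averages log levels, so levels near 0 in experiment 2 or 4 enlarge it. Members near 0 in both, such as Top2a and Kif11, passed the filter on low counts only through experiments 3 and 1. That filter favoured a fold change above 0 for them, so the count of 22 is no support for a difference. Some members were lower in experiment 3 than in experiment 1. Mcm6 (log2 fold change 3.27) had 39.1 CPM in experiment 3 and 61.2, 20.1 and 0.0464 CPM in experiments 1, 2 and 4. No member passed (lowest edgeR adjusted p = 0.120), beside 0.131% of all genes. The high levels were in 2 of the 4 libraries. Summed over the list, experiment 3 had 1269, 253, 946 and 132 CPM, experiment 1 had 190.2, 722, 698 and 358 CPM, and experiments 2 and 4 had 134 to 348 and 121 to 189 CPM. Replicates 1 and 3 of experiment 3 were high, and replicates 2 and 4 lay within the range of the 12 others. Cdk1, the kinase that drives entry into mitosis, had 91.3, 3.15, 39.7 and 1.85 CPM in experiment 3, and Ube2c, a ubiquitin enzyme of mitotic exit, had 127, 0, 1.29 and 0.479 CPM, nearly all of it in replicate 1. With the 4 mouse-host libraries above 500 CPM of these genes left out (replicates 1 and 3 of experiment 3 and 2 and 3 of experiment 1), a setting chosen after the data were seen, edgeR called 0 genes of the comparison with experiments 1, 2 and 4, with 800 at an unadjusted p below 0.05. All 16 genes kept their direction there, and the log2 fold change was 1.13 for P2rx6 (edgeR adjusted p = 0.179), -3.45 for Spp1 and 1.48 for Anp32a (edgeR adjusted p = 0.106). The part of these genes in the result was not tested further.

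**Figure D4:**
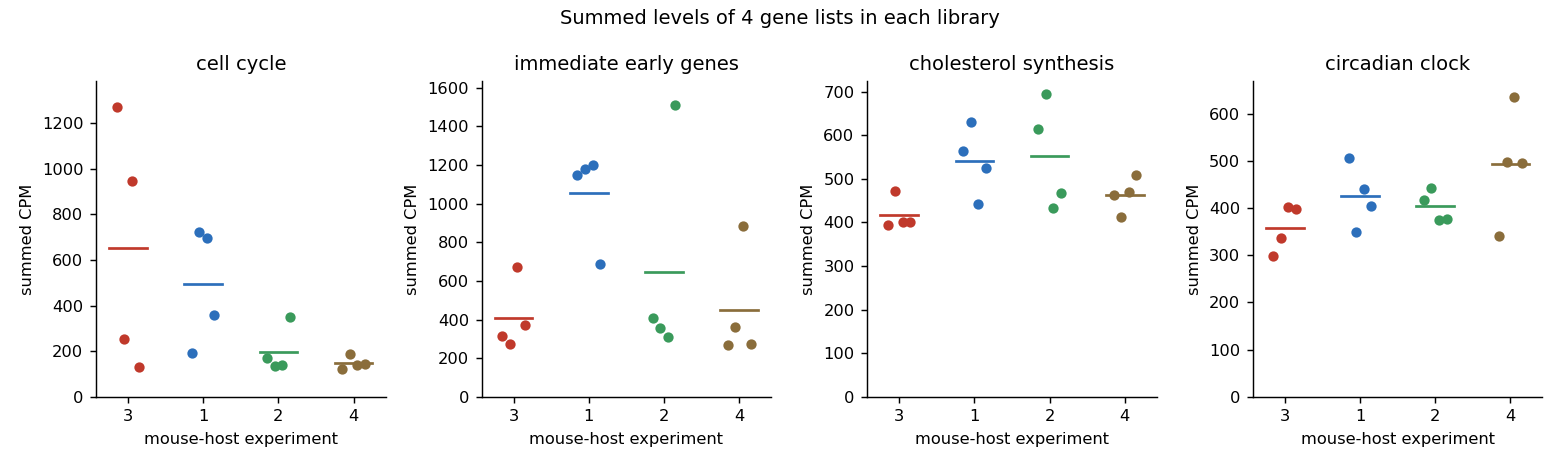
Summed CPM of the genes of 4 lists in each library, on linear axes, with experiment 3 at the left and experiments 1, 2 and 4 beside it; points are libraries and lines are means. The cell-cycle sum splits experiment 3 into 2 high and 2 low libraries. The cholesterol sums of experiment 3 lie below the range of the others, except in replicate 2, which lies within it.

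The other lists held no call, beside 0.131% of all genes, so they are too short to tell their shares from that. Immediate early genes, which respond within minutes to stimuli, had 3 of 15 fold changes above 0 and a median of -0.66. Their sums were 314, 272, 670.2 and 372 CPM in experiment 3, against 269 to 1510.2 CPM in experiments 1, 2 and 4, where replicate 4 of experiment 2 was the highest. Cholesterol synthesis genes had 3 of 16 fold changes above 0 and a median of -0.31, with sums of 394, 472, 401 and 402 CPM in experiment 3 and 413 to 695 CPM in the other libraries. Clock genes had 5 of 15 above 0 with a median of -0.28. Cytosolic ribosomal protein genes had 26 of 34 above 0, yet a median of only 0.11. Mitochondrially encoded genes had 6 of 13 above 0 (median -0.05) and genes of the unfolded protein response 10 of 20 (median 0.03).

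Genes most like Gcm2 were ranked by Pearson's r of log2(CPM + 1) over the 16 mouse-host libraries, among 8619 genes with at least 8 CPM on average. The highest was Utrn, which encodes the membrane-linker utrophin, with r = 0.85. It was followed by Dynll2, a dynein light chain (r = 0.85), AW549877 (0.85), the annexin gene Anxa1 (0.83), the chromatin remodeller Smarca2 (0.83), Pax9 (0.83), the endocytic scaffold Itsn1 (0.82), Myh10 (0.80), the sodium-proton exchanger Slc9a4 (0.80) and the dynamin Dnm3 (0.79). Most unlike Gcm2 were the tetraspanin Cd81 (r = -0.83), Upk3a (-0.81), the ciliary gene B9d1 (-0.79), the ribosome assembly factor Imp4 (-0.76), Mfsd14a (-0.76) and the syndecan Sdc4 (-0.76). No gene passed an adjusted permutation p of 0.05 for r (100000 permutations, two-sided, lowest adjusted p = 0.0754 over 8619 genes). For Utrn the unadjusted permutation p was 1e-05, the smallest that these permutations can give. Over 8619 genes, a lone gene at this smallest p cannot pass after adjustment, so the number of permutations limits the result for r. For rho, 4 genes passed, among them Utrn (rho = 0.88), Cd81 (-0.88) and Upk3a (-0.94). The permutations treat the 16 libraries as independent, which libraries of 1 experiment need not be.

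The likeness was also described between and within experiments. Utrn had 57.0, 33.5, 57.0 and 80.2 CPM in experiment 3, against 6.06, 15.1, 14.0 and 11.8 CPM in experiment 1, 27.6, 38.9, 35.0 and 31.95 CPM in experiment 2 and 20.0, 31.8, 49.3 and 16.6 CPM in experiment 4, so its order of experiments is close to that of Gcm2. Pax9 averaged 276 ± 48.9 CPM in experiment 3 and 107 ± 22.8, 190.4 ± 17.7 and 217 ± 49.6 CPM in experiments 1, 2 and 4 (SD, n = 4 each), an order in which experiments 2 and 4 change places relative to Gcm2. When deviations from each experiment's mean were used, r with Gcm2 was 0.83 for Dynll2, 0.67 for Dnm3 and 0.64 for Pax9. It was 0.65 for Myh10, 0.46 for Utrn and 0.11 for Slc9a4. All are of 1 sign with the pooled value, but the genes were picked by that value, which includes these deviations. In the other 16 libraries of the series (graft, rat host and controls), the same deviations gave -0.50 for Dynll2, -0.68 for Utrn, 0.30 for Dnm3, 0.28 for Pax9, -0.22 for Myh10, 0.48 for Upk3a and -0.53 for Cd81. The sign there was the opposite of the pooled one for 10 of the 16 named genes. Without the 2 libraries farthest from the median of Gcm2, the pooled r was 0.79 for Utrn, 0.76 for Pax9, 0.72 for Dynll2 and -0.74 for Cd81.

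**Figure D5:**
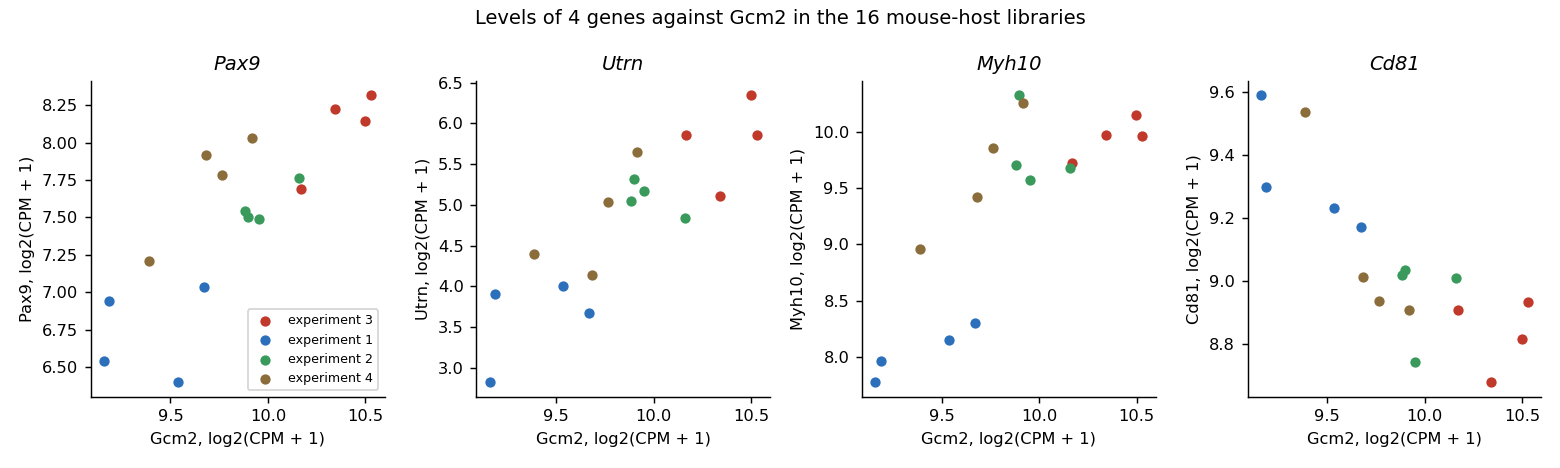
Pax9, Utrn, Myh10 and Cd81 against Gcm2 in the 16 mouse-host libraries, both axes as log2(CPM + 1) and colours by experiment. Experiment 1 (blue) sits toward the low Gcm2 end and experiment 3 (red) at the high end, with r between 0.80 and 0.85 for the 3 rising genes and -0.83 for Cd81.

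Within experiments, no gene followed Gcm2 past the threshold. A slope on the log2 CPM of Gcm2, fitted beside a coefficient per experiment, passed for 0 of 12194 genes (0%) in edgeR's quasi-likelihood test with Benjamini-Hochberg adjustment. At an unadjusted p below 0.05 there were 320 positive slopes (2.62%) and 252 negative ones (2.07%), and the lowest adjusted p was 0.997. Among named genes the smallest unadjusted p of the positive slopes belonged to Creld1, which encodes a membrane protein (slope 3.27, SE 0.76), then Dnm2, a dynamin (2.39), Man2c1, a cytosolic mannosidase (1.76), Bspry (1.48), Pon2 (2.06), Chmp7 (2.55), the hedgehog transducer Smo (3.56) and Amacr (2.52). Of the negative slopes it belonged to Atp1b3, a sodium pump subunit (-1.43), then Homez (-2.93), Ptma (-1.37), Hist1h2bc (-1.21), the kinase Map2k3 (-1.86), Cdc16 (-1.42), Oard1 (-2.15) and Ankrd12 (-2.66). A slope is the change in log2 level per unit of log2 Gcm2. None of these 16 genes was among the 16 called between experiments.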

How the data were processed

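Small pools of hand-picked cells were made into libraries with a SMART-Seq HT kit, per the labels' protocols. The authors deposited a Salmon estimated count and a TPM value per transcript. The submitters' processing notes name Salmon and GRCm39, without giving the Salmon release or the transcript set. Counts of 116747 listed transcripts were summed to 35458 genes by the names of GENCODE M21, which matched 115685. The 1062 unmatched held 0.42% to 0.572% of mouse-host reads and were left out. Sums were rounded to whole numbers. The deposited TPM values were summed per gene and used for Gcm2 and in 1 alternative test.

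Tests used edgeR 4.0.16 in R 4.3.3 (TMM scaling, filterByExpr, quasi-likelihood fit with a coefficient per experiment over 16 libraries, Benjamini-Hochberg adjustment over all genes tested, threshold 0.05), and were tested on simulated data. Alternatives used limma 3.58.1 and DESeq2 1.42.0. CPM were taken on TMM-scaled sizes over 32 libraries, and correlations used log2(CPM + 1). Tests compare experiment 3 with the mean of experiments 1, 2 and 4, then with each. The rule for named genes asked for a call in all 3 single contrasts, no overlap and at least 8 CPM; it yielded no gene. A listed regulator is counted with its list and not reported here by itself. Genes and lists were chosen with earlier results of these data known. Nothing in the labels says that libraries came from separate animals, so p-values measure the spread between libraries, which may be technical. Pairs of libraries within a group differed by more than counting noise (lowest chi-square per degree of freedom 47.1 over 24 pairs of mouse-host libraries). This ratio pools all genes with at least 20 reads in a pair. It does not show that counting error is small for called genes with few reads, such as Hist1h2ac.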

Additional observations from a re-analysis of the deposited data

Results flagged for a closer look

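Values are CPM. A library is given here when it lay far from the other 3 of its experiment, by a gap that is past Dixon's critical value for 4 samples. Of 208 groups of 4 looked at, over 52 items, 32 met this. Chance gives about 1 in 20 for independent groups of normal values, which CPM near 0 are not, so the count is not set against it. A group with reads in only 1 library always meets the rule, as for Bmp3 in experiment 4 and Tnfrsf21 in experiment 2, both at levels near 0.

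In experiment 3, replicate 1 was far above the others for Bmp3 (46.0, against 18.5 to 20.4 in the other 3) and Ube2c (127, against 0 to 1.29). Replicate 2 was far above the others for Adam33 (146, against 74.1 to 79.9) and for the summed cholesterol synthesis genes (472, against 394 to 402).

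In experiment 1, replicate 4 was high for Bmp3 (0.651), Pax1 (51.0), Anxa1 (17.3, against at most 0.108) and Ptov1 (193), and low for the summed immediate early genes (688). Replicate 3 was high for Tubb1 (175, against 43.4 to 63.0) and Hist1h2ac (0.181), and replicate 2 for Noct (769.8, against 439.6 to 452).

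In experiment 2, replicate 1 was high for P2rx6 (328, against 159 to 176), Plxna2 (93.0, against 63.8 to 66.3) and Dsc1 (5.87, against at most 0.160). Replicate 4, which also held the fibroblast genes, was high for Upk3a (59.98, against 21.2 to 27.1), Ube2c (3.00), the summed cell-cycle genes (348) and the summed immediate early genes (1510.2, against 309 to 406). Replicate 3 was high for Bmp3 (6.65) and Cdk1 (4.28) and low for Cd81 (427), and replicate 2 was high for Myh10 (1282) and Tnfrsf21 (0.0798).

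In experiment 4, replicate 1 was high for Pth (136900, against 80395 to 88179) and Cd81 (743). Replicate 2 was high for F3 (297) and low for Pax1 (8.32), replicate 3 was high for Tbx1 (23.2), Bmp3 (0.0943) and the summed immediate early genes (883), and replicate 4 was high for Cdk1 (3.00). No explanation of these values was tested.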

How the results depend on the processing

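No direction of the 16 called genes or of Gcm2 reversed under any setting that was run. The count of genes called higher or lower (10 and 6) moved with no filter on low counts to 16 higher, and with experiment 4 left out, so that only libraries labelled female remained, to 24 and 19. Without experiment 1 it was 4 and 0. Counts summed per experiment gave 0 and 0, DESeq2 gave 66 and 93, limma voom fitted with a random effect per experiment 6 and 0, and limma-trend on log2(TPM + 1) 17 and 12. The setting without libraries above 500 CPM of cell-cycle genes, chosen after the data were seen, gave 0 and 0. Genes called in all 3 contrasts numbered 18 with DESeq2. The cause of these moves was not tested, beyond the fewer samples that the settings leaving out libraries hold. Slopes on Gcm2 with no experiment term passed for 3 positive and 2 negative genes. Leaving out 1 library at a time gave 5 to 13 genes higher and 3 to 10 lower, 0 in all 3 contrasts, a Gcm2 log2 fold change of 0.65 to 0.76, and 0 slopes. The fit with a replicate block called 12 higher and 7 lower, 0 in all 3 contrasts and 0 slopes, with a Gcm2 log2 fold change of 0.71. Same-numbered libraries of different experiments had a median correlation of deviations of -0.00115 (over 0.1 in 2 of 24 pairs). Differently numbered ones had -0.00367 (over 0.1 in 1 of 72 pairs). The medians give no sign that the numbers pair the samples, but they cannot exclude it for some pairs. Gcm2 kept a log2 fold change between 0.55 (without experiment 1) and 0.83 (without experiment 2). Genes with few reads, such as Hist1h2ac, are limited by depth.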

Other observations

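Skeletal muscle markers summed to 93.9, 61.2, 105 and 56.6 CPM in experiment 3, against 30.1 to 69.2 CPM in experiments 1, 2 and 4, and the 3 of 6 with reads in experiment 3 included Myh4, a fast myosin heavy chain. Myh4 averaged 35.1 CPM in experiment 3, 2.87 CPM in experiment 1, 0.521 CPM in experiment 2 and 4.67 CPM in experiment 4. There was no overlap between experiment 3 and the other libraries, and no call (edgeR adjusted p = 0.266). The other 2 muscle genes tested were not higher, with log2 fold changes of -1.02 for Mylpf and -0.07 for Myl1. Myl1 averaged 41.8 CPM in experiment 3 and 46.6, 52.7 and 35.1 CPM in experiments 1, 2 and 4. Genes of cells that present antigen through MHC class II were present in every mouse-host library, at 77.4, 129.7, 43.7 and 63.9 CPM in experiment 3 and 12.1 to 251 CPM in the others. Interferon-stimulated genes summed to 185 to 286 CPM in experiment 3, against 191 to 639 CPM in the others, where 3 libraries of experiment 1 held the highest sums. Genes of parathyroid growth control had 10 of 13 fold changes above 0, with a median log2 fold change of 0.38. Heat shock genes had 12 of 15 above 0, with a median of 0.19. None of these was called by edgeR, beside 0.131% of all genes, and the lists are too short to tell their shares from that.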
